A study of Mus musculus with 16 samples.

Results

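The genes described are 10 members of the Krüppel-like factor (KLF) family: Klf2, Klf3, Klf4, Klf5, Klf6, Klf7, Klf9, Klf10, Klf11 and Klf13. They were taken by gene symbol as the broadly expressed members other than Klf1, out of 55536 genes in the count table and 17 annotated genes whose name is Klf and a number. Their transcripts were measured by RNA-seq in bone marrow, in samples labelled MSC and in tumors, from mice carrying the K74R change in a KLF gene and from wild-type (WT) mice. All 10 had counts in every library and passed the filter on low counts in each tissue, from 10 counts of Klf5 in a WT MSC library to 8133 of Klf6.

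KLF proteins are transcription factors with a shared zinc finger domain at the C-terminus, which binds GC boxes and CACCC boxes, the latter named after the sites in globin gene promoters. Family members compete for the same sites and often act on each other's genes, and the parts outside the zinc fingers set whether a member activates or represses. Klf3 belongs to a class that recruits the corepressor CtBP. Klf2, Klf4, Klf5, Klf6 and Klf7 belong to the class that holds Klf1 and includes most activators, and Klf9, Klf10, Klf11 and Klf13 to a class that recruits the Sin3A corepressor. In bone marrow Klf1 drives red cell differentiation, Klf4 monocyte differentiation and Klf2 the quiescence and traffic of lymphocytes. In endothelium Klf2 and Klf4 respond to blood flow.

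The 6 groups were WT and K74R bone marrow (3 libraries each), WT and K74R MSC (2 each) and WT and K74R tumor (3 each). The labels leave MSC unexpanded, name the mutated gene only as KLF, and call the same mutant samples KO in their titles and KLF K74R under genotype. K74R, arginine in place of lysine, is an allele known from work on Klf1. The tumors were grown from MC38, an established mouse colon adenocarcinoma line, up to 1000 mm3. Genotype there is that of the host mouse, so each tumor library mixes transcripts of the line with those of host cells. Ages, sexes and strains were not given in the sources used here. Nothing in the labels says that libraries of a group stem from different animals or cultures, so the p-values describe only how far these samples vary, in part perhaps for technical reasons. Libraries held 14067259 to 18923751 counts.

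Marker lists were checked against the tissue labels. Bone marrow held summed neutrophil markers of 29850 to 38470 CPM (read counts relative to library size) and erythroid markers of 36900 to 48490 CPM. MSC libraries held stromal and fibroblast markers at 13050 to 17500 CPM, together with monocyte and macrophage markers at 2463 to 9118 CPM. In tumors the 10 epithelial markers summed to 4.61 to 9.02 CPM, with Cdx2 at 0 in all 6 libraries and Epcam between 0.0504 and 0.592 CPM, so these defining markers of the labelled tumor type were at or near 0. Within MSC, summed endothelial markers reached 322 and 1708 CPM in WT but 18.9 and 26.9 CPM in K74R. Of the 9 tested 6 passed as lower, where 3.34% of all genes passed. In bulk tissue, fewer cells of a type and less RNA per cell cannot be told apart.

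Some members passed a test, given below, of whether their genotype difference differed between tissues. Their promoters are shown first, as far as the RefSeq promoter table (GRCm38.p6, 8 of the 10 members matched) holds them. Each run lies before the RefSeq start site and in no annotated exon, and reads 5′ to 3′ on the gene's strand. That of Klf7 lies within the gene as annotated, in an intron of a transcript that starts further upstream. Capitals mark the letters a KLF protein is known to bind: the CACCC box (CACCC, or GGGTG for the other strand) and the GC box (GGGCGG, or CCGCCC). The 2 motifs can overlap.
Klf4 (chr4:55532476-55532675, minus strand): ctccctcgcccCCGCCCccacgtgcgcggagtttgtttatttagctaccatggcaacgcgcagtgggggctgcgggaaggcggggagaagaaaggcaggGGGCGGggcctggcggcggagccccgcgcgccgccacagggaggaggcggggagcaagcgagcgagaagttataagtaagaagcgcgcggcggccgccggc
Klf6 (chr13:5861282-5861481, plus strand): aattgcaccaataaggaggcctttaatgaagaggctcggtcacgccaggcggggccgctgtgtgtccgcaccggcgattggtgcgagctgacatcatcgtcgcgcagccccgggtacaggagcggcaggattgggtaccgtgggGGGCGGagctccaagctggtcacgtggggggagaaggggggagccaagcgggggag
Klf7 (chr1:64121492-64121639, minus strand): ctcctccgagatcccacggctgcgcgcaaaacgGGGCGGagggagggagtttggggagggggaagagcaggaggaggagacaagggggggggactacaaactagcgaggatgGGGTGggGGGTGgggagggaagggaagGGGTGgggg
Klf13 (chr7:63938916-63939115, minus strand): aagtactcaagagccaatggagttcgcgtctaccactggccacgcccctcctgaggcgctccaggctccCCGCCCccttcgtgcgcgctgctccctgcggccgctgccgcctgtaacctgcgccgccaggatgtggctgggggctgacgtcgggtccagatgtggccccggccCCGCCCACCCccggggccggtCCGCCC
The 300-base windows from which these come, 250 bases before the start site to 50 after it, held 4 GC boxes and no CACCC box in Klf4 and 1 GC box and no CACCC box in Klf6. Klf7 had 1 GC box and 3 CACCC boxes, and Klf13 had 3 GC boxes and 1 CACCC box. Of 32851 windows of that length in the table, 57.5% held a CACCC box and 35.7% a GC box on either strand. A match is a run of letters and does not show that a factor binds there.

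Levels were compared between genes as CPM per kilobase of exon, since Klf3 has 11243 bases of exon and Klf2 has 1847. On this scale Klf6 had the highest mean of the 10 in all 6 groups: in WT libraries it averaged 36.6 ± 3.33 in bone marrow, 109 ± 6.64 in MSC and 61.1 ± 1.13 in tumors (SD, n = 3, 2 and 3). In WT bone marrow Klf13 (36.1 ± 3.36) and Klf3 (31.0 ± 4.65) overlapped with Klf6 and with each other, and Klf2 (17.8 ± 1.42) and Klf4 (17.1 ± 2.21) formed the next level. Klf10 (12.3) and Klf11 (10.3) followed. Klf9 (5.17), Klf5 (5.13) and Klf7 (4.85) came last, with overlapping libraries. Klf6, Klf13 and Klf3 made up 20.8%, 20.5% and 17.6% of the summed length-adjusted level of the 10 genes there.

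Outside the marrow the order below Klf6 was different. In WT MSC Klf6 alone made up 50.7% of the sum, Klf2 (23.0 ± 4.03) came next, and Klf13, Klf3, Klf4 and Klf10 lay between 17.6 and 12.9 with neighbours overlapping. Klf5 was last at 0.254 ± 0.193. In WT tumors Klf4 (26.2 ± 2.03) and Klf2 (20.6 ± 4.23) took the places behind Klf6. Klf13 and Klf3, prominent in marrow, lay at 6.16 and 6.07, with libraries overlapping those of Klf11. Against all genes detected in every library of a tissue, the length-adjusted level of Klf6 stood at the 93.2, 98.2 and 96.8 percentile of bone marrow, MSC and tumor, and that of Klf5 at 61.4, 20.2 and 55.2.

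**Figure D1:**
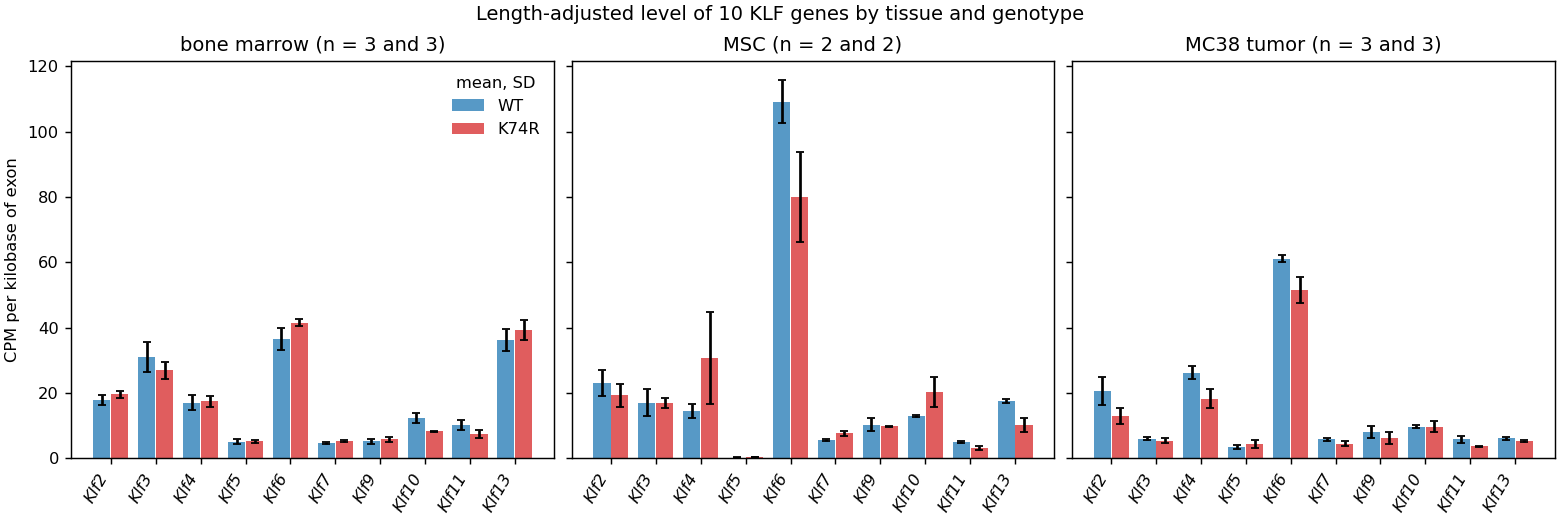
Mean CPM per kilobase of exon (y axis) of the 10 KLF genes (x axis) in bone marrow, MSC and MC38 tumor, WT in blue and K74R in red, with error bars of 1 SD over 3, 2 and 3 libraries per genotype. Klf6 is highest in all 3 panels, at 109 in WT MSC, while Klf13 and Klf3 are close to it in bone marrow only.

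The tissue comparisons were made among WT libraries, and the 3 of them share libraries and are given side by side. Between bone marrow and tumor 9 of the 10 members passed an adjusted p of 0.05 (edgeR quasi-likelihood test, Benjamini-Hochberg over all genes), where 78.5% of all genes tested did. Between bone marrow and MSC 6 passed, with 71.2% of all genes, and between MSC and tumor 6, with 70.9%. With at least a 2-fold difference the members called numbered 2, 5 and 3, against 50.5%, 51.0% and 48.2% of all genes. The share of members called was near that of all genes without the fold limit, and at or below it with the limit. Scaling by library size alone moved the median log2 difference of all genes from -0.02 to -0.21 between bone marrow and tumor and from -0.09 to -0.27 between MSC and tumor.

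Klf3, the CtBP-binding repressor that shapes erythroid and adipocyte development (ENSMUSG00000029178, chr5:64803388-64832901, plus strand), was highest in bone marrow. It stood at 395, 292 and 359 CPM in WT bone marrow, at 226 and 158 CPM in WT MSC and at 73.3, 68.8 and 62.6 CPM in WT tumors. The libraries of the 3 tissues did not overlap. The log2 difference was 2.38 (SE 0.12) between bone marrow and tumor, 0.85 (SE 0.20) between bone marrow and MSC and 1.48 (SE 0.17) between MSC and tumor, with adjusted p = 6.5e-08, 0.00740 and 2.1e-04 in edgeR. In the K74R libraries these 3 differences were 2.35, 0.67 and 1.69.

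Klf13, a regulator of lymphocyte and erythroid genes (ENSMUSG00000052040, chr7:63886351-63938915, minus strand), had the same order of tissues. Its WT libraries held 301, 255 and 260 CPM in bone marrow, 135 and 129 CPM in MSC and 45.8, 50.5 and 42.9 CPM in tumors, again without overlap. In WT, bone marrow exceeded tumor by 2.58 (SE 0.10) on the log2 scale and MSC by 1.03 (SE 0.12), and MSC exceeded tumor by 1.5 (SE 0.11), all past the threshold (edgeR adjusted p = 1.1e-08, 3.4e-04 and 2.7e-05). In K74R libraries bone marrow exceeded MSC by 1.95. Over the 16 libraries the log2 CPM of Klf13 and Klf3 had a Pearson correlation of 0.951, the highest among the pairs formed with Klf3 or Klf13. The libraries of a tissue are not independent points in such a value.

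Klf5, an activator of proliferation in epithelia and a regulator of neutrophil production (ENSMUSG00000005148, chr14:99298691-99315036, plus strand), was near absent from MSC. WT bone marrow held 31.4, 22.6 and 26.1 CPM, WT tumors 14.9, 20.3 and 20.2 CPM, and the WT MSC libraries 0.615 and 2.03 CPM. Bone marrow exceeded MSC 20.2-fold (log2 difference 4.33, SE 0.44, edgeR adjusted p = 1.6e-04), and tumors exceeded MSC 14.2-fold (MSC minus tumor -3.83, SE 0.43, adjusted p = 2.2e-04). The MSC level of Klf5 rests on 10 and 30 counts, and both folds move with the library kept. Without WT MSC library 1 they were 12.8 and 9.13, and without library 2 they were 42.2 and 29.9, all past the threshold. Between bone marrow and tumor the difference was 0.56 (adjusted p = 0.00950). That last call was lost with scaling by library size alone (0.0563), with all 16 libraries in a single model (0.0568) and in the K74R libraries (0.225).

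Klf6, an injury-induced activator also active in macrophages and stellate cells (ENSMUSG00000000078, chr13:5861482-5870394, plus strand), was highest in MSC. It stood at 500.0 and 459 CPM in WT MSC, at 263, 272 and 270.1 CPM in WT tumors and at 178, 153 and 151 CPM in WT bone marrow. The 3 tissues did not overlap, and MSC exceeded bone marrow 3.00-fold and tumor 1.77-fold (edgeR adjusted p = 4.7e-05 and 2.9e-04). In K74R libraries MSC exceeded bone marrow 1.92-fold. Monocyte and macrophage markers, which were also highest in MSC, summed to 9118 and 7176 CPM in the same WT MSC libraries, 984 to 1010 CPM in WT tumors and 1579 to 1726 CPM in WT bone marrow. Their part in the level of Klf6 was not tested.

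Klf4, known from pluripotency and from monocyte and epithelial differentiation (ENSMUSG00000003032, chr4:55527143-55532466, minus strand), was highest in WT tumors. It held 86.9, 78.0 and 75.02 CPM there, 59.6, 46.8 and 49.5 CPM in WT bone marrow and 48.5 and 39.2 CPM in WT MSC. Tumor exceeded bone marrow by 0.59 and MSC by 0.88 on the log2 scale (edgeR adjusted p = 5.2e-04 and 0.00109), and bone marrow and MSC overlapped. Among the K74R libraries the order was different: MSC exceeded tumor by 0.78 (adjusted p = 0.0448) and bone marrow by 0.81 (0.0215), and bone marrow and tumor differed by -0.04 (0.802).

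Klf2, the flow-induced factor of endothelium and quiescent lymphocytes (ENSMUSG00000055148, chr8:72319033-72321656, plus strand), had no tissue difference past the threshold. It had 34.6, 34.3 and 29.9 CPM in bone marrow, 47.7 and 37.2 CPM in MSC and 47.0, 32.5 and 34.7 CPM in tumors (edgeR adjusted p = 0.0637 to 0.531). Without WT MSC library 2 the bone marrow to MSC difference passed at -0.55 (0.0159), and in K74R libraries bone marrow exceeded tumor by 0.62 (0.00240). Klf7, an activator first described in neurons that also acts in adipose tissue (ENSMUSG00000025959, chr1:64029447-64122282, minus strand), also had like levels in the 3 tissues, with 36.5, 41.3 and 40.4 CPM in bone marrow, 46.6 and 44.4 CPM in MSC and 44.4, 47.5 and 50.03 CPM in tumors. Its bone marrow to tumor difference of -0.23 passed at 0.0413 and was kept in 7 of 15 alternatives. In K74R libraries the difference of Klf7 in bone marrow from MSC was -0.53 (edgeR adjusted p = 0.00593). That of MSC from tumor was 0.80 (0.00554). Klf7 shares 3196 exon bases with the opposite-strand gene Gm26649 and Klf3 shares 404 with Gm20033, which had 0 counts and 2 to 13 counts per library. Strand use in counting was not given in the sources used here.

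Among the Sin3A-binding members, Klf9, a target of glucocorticoid and thyroid hormone receptors (ENSMUSG00000033863, chr19:23141226-23168134, plus strand), was lowest in marrow. Its WT values were 23.3, 22.2 and 29.2 CPM in bone marrow, 43.2 and 56.3 CPM in MSC and 40.7, 46.0 and 28.8 CPM in tumors. The differences of bone marrow from tumor and MSC were -0.60 and -1.01 (edgeR adjusted p = 0.0101 and 0.00198). In K74R libraries the first of these was -0.09 (0.680). Klf11, a repressor induced by transforming growth factor beta (TGF-beta) (ENSMUSG00000020653, chr12:24651274-24662789, plus strand), was highest in marrow, at 49.8, 37.2 and 47.7 CPM against 22.9 and 20.9 CPM in MSC and 22.1, 30.7 and 23.3 CPM in tumors. Bone marrow exceeded tumor by 0.85 and MSC by 1.02 (5.5e-04 and 0.00120). Klf10, the TGF-beta inducible early gene (ENSMUSG00000037465, chr15:38291463-38300706, minus strand), held 54.0, 43.9 and 56.1 CPM in bone marrow, 55.0 and 52.9 CPM in MSC and 43.1, 39.6 and 39.6 CPM in tumors. Tumors were lowest, by 0.36 against bone marrow and 0.39 against MSC (0.0105 and 0.0132). With scaling by library size alone both calls were lost (0.152 and 0.121). The MSC call was also lost without WT tumor library 2 (0.0654) and with the replicate block (0.0701). In K74R libraries the difference of bone marrow from tumor was -0.21 (0.140) and that of MSC from tumor 1.09 (0.00242). That of bone marrow from MSC was -1.30 (1.5e-04).

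**Figure D2:**
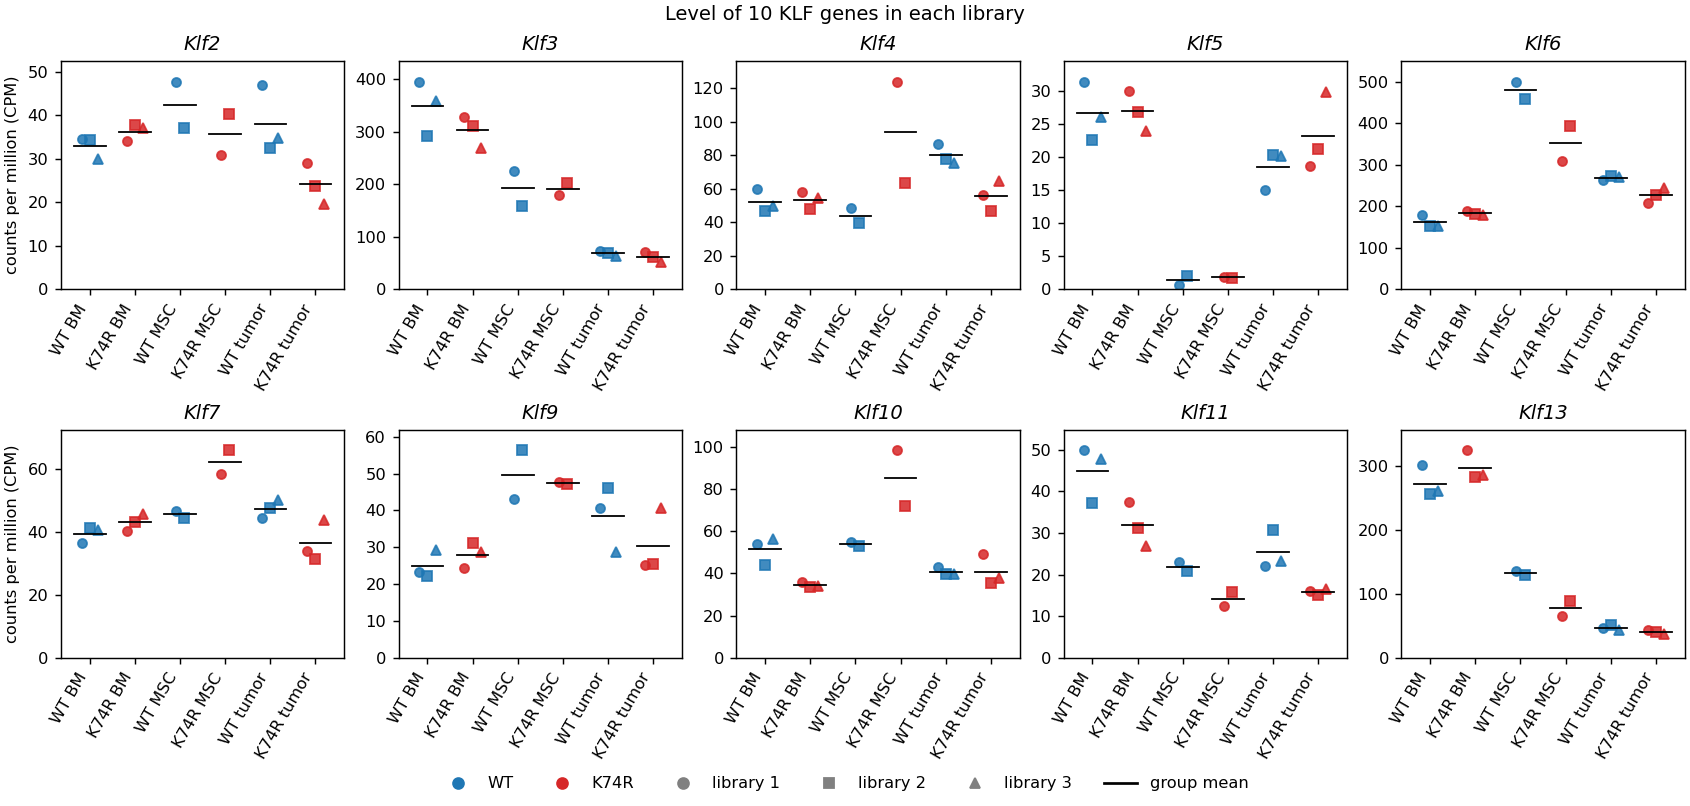
CPM (y axis, from 0) of each of the 10 KLF genes in every library, by tissue and genotype (x axis), with WT in blue, K74R in red, a marker shape per library number and a line at the group mean. Klf3 and Klf13 step down from bone marrow to MSC to tumor, Klf5 lies between 0.615 and 2.03 CPM in MSC, and the K74R MSC libraries of Klf4 stand apart from each other at 124 and 63.5 CPM.

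In bone marrow, 1 of the 10 genes changed with genotype: Klf10 fell in K74R (edgeR, Benjamini-Hochberg over 14872 genes, of which 0.773% passed). Its K74R libraries held 35.7, 33.5 and 34.0 CPM, all below the lowest WT library. The log2 fold change (K74R over WT here and below) was -0.56 (SE 0.10, adjusted p = 0.0454), from 51.3 ± 6.52 to 34.4 ± 1.17 CPM (SD, n = 3 and 3). The call was kept in 9 of 16 alternatives. It was lost with limma-voom (adjusted p = 0.0592), in a single model of the 16 libraries (0.120), and when 1 of 5 libraries was left out: WT 1 (0.118), WT 3 (0.196), K74R 1 (0.0588), K74R 2 (0.219) or K74R 3 (0.212).

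Klf11, the closest relative of Klf10, had 37.4, 31.2 and 26.9 CPM in K74R marrow, and the highest of these lay just above the lowest WT library of 37.2 CPM. Its fold change was -0.48 (SE 0.14, edgeR adjusted p = 0.142), and it passed without WT library 2 (0.0350). Klf6 stood at 188, 181 and 178 CPM in K74R, above all 3 WT libraries, a fold change of 0.20 (SE 0.08, edgeR adjusted p = 0.237). In total 3 members had an unadjusted p under 0.05, against 17.8% of all genes, and 2 had genotypes that did not overlap, against 23.0%.

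The other 7 members had fold changes between -0.19 and 0.19 in bone marrow, with adjusted p from 0.423 to 0.936 in edgeR. Klf3 held 329, 310.3 and 269 CPM in K74R marrow and Klf13 held 323, 282 and 285 CPM. Klf2 stood at 34.0, 37.7 and 37.0 CPM, Klf4 at 57.7, 47.8 and 54.4 CPM and Klf5 at 30.0, 26.8 and 23.9 CPM. Klf7 had 40.1, 43.1 and 45.7 CPM and Klf9 24.3, 31.2 and 28.6 CPM. For all of these the genotypes overlapped. Cell type markers moved in the same libraries: the 11 B cell markers summed to 623, 943 and 473 CPM in WT against 1025, 1359 and 1466 CPM in K74R, all with a positive fold change, 10 of them at an unadjusted p under 0.05, and none called. Neutrophil markers summed to 35590 to 38470 CPM in WT against 29850 to 32510 CPM in K74R, with 0 of 14 called and 6 lower and 1 higher at that p. Their part in the values of Klf10, Klf11 and Klf6 was not tested.

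In MSC 0 of the 10 members passed with edgeR, where 3.34% of 14475 genes passed, and 0 with limma-voom, where 2.80% did. At an unadjusted p under 0.05 there were 5 (26.0% of all genes), 3 higher and 2 lower. DESeq2 called 2, Klf4 (adjusted p = 0.0382) and Klf13 (0.0391), and 13.2% of all genes. The model of all 16 libraries, which takes its spread from every tissue, called 6, and 24.4% of all genes. The 2 genotypes did not overlap for those same 6 genes, with 59.4% of all genes alike in this: Klf4, Klf7 and Klf10 were higher and Klf6, Klf11 and Klf13 lower in K74R. With 2 libraries a group such separation is common, as the background shows. Without K74R MSC library 1, 0 of all genes tested passed.

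Klf4 had 124 and 63.5 CPM in the K74R MSC libraries, both above WT, with library 1 well above library 2. Its fold change was 1.09 (SE 0.34, edgeR adjusted p = 0.127), 1.49 without K74R library 2 (0.0487) and 0.53 at the lowest over its alternatives. Klf10 held 98.2 and 71.8 CPM, a fold change of 0.65 (SE 0.21, 0.135), and Klf7 held 58.3 and 65.8 CPM, a fold change of 0.44 (SE 0.18, 0.189). In the model of all 16 libraries the adjusted p was 0.00432 for Klf4, 0.0105 for Klf10 and 0.0332 for Klf7.

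On the lower side, Klf13 stood at 64.9 and 89.1 CPM in K74R MSC (fold change -0.79, SE 0.21, edgeR adjusted p = 0.0981). Klf11 stood at 12.4 and 15.8 CPM (-0.65, SE 0.22, 0.149) and Klf6 at 309 and 394 CPM (-0.46, SE 0.22, 0.253). The single model of 16 libraries gave 0.00132, 0.0315 and 0.0158 for these. Klf2 (30.9 and 40.2 CPM), Klf3 (179 and 203 CPM), Klf9 (47.8 and 47.1 CPM) and Klf5 (1.82 and 1.69 CPM) overlapped with WT.

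Other cell types differed in these libraries as well. Endothelial markers were lower in K74R as given above, with Pecam1 at 104 and 565 CPM in WT against 3.65 and 2.99 CPM in K74R, and Cldn5 at 0 in both K74R libraries. Monocyte and macrophage markers summed to 9118 and 7176 CPM in WT against 2463 and 4575 CPM in K74R, with 1 of 11 called, C1qa, as lower. The leukocyte gene Ptprc stood at 433 and 218 CPM in WT against 84.5 and 219 CPM in K74R. Stromal markers summed to 13220 and 14540 CPM in WT against 13050 and 17500 CPM in K74R, a sum over genes with fold changes of both signs. Of the 12 tested 0 were called, with 6 higher and 2 lower at an unadjusted p under 0.05. The collagen gene Col1a1 averaged 1591 CPM in WT and 4288 in K74R, Col1a2 2932 and 6231, and the chemokine gene Cxcl12 6999 and 2318. Epithelial markers summed to 1.66 and 8.81 CPM in WT against 80.2 and 12.9 CPM in K74R libraries 1 and 2. Of 2 tested 0 were called, with 1 higher and 1 lower at an unadjusted p under 0.05. Neutrophil markers summed to 76.1 and 30.7 CPM in WT against 89.6 and 163.5 CPM in K74R. Of 4 tested Mmp8 was called as higher and Csf3r as lower, where 3.34% of all genes passed. The part of these cell types in the differences of Klf4, Klf6, Klf7, Klf10, Klf11 and Klf13 was not tested.

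In tumors 8 of the 10 members had a negative fold change, with a median of -0.28 over the 10 and 0.005 over all 14779 genes tested. With edgeR 0 passed, and 0 with limma-voom, and 0.0406% of all genes passed with either tool. At an unadjusted p under 0.05 there were 5, all lower in K74R: Klf2, Klf4, Klf6, Klf7 and Klf11. Of all genes 11.2% reached that p, 6.19% as lower. For the same 5 genes each K74R library lay below each WT library, as genotypes did not overlap in 17.0% of all genes. DESeq2 called 3 of them, Klf2 (adjusted p = 0.0247), Klf4 (0.0116) and Klf11 (0.00503), and 1.37% of all genes.

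Klf11 showed the smallest p of the 10 in tumors, with 16, 15.1 and 16.5 CPM in K74R and a fold change of -0.67 (SE 0.13, edgeR adjusted p = 0.222). It was lower in K74R in each of the 3 tissues, at -0.48, -0.65 and -0.67, without passing in any of the main edgeR tests. Klf11 did pass under some alternatives, among them DESeq2 in tumors (0.00503) and the edgeR model of all 16 libraries in MSC (0.0315). Klf2 held 28.9, 23.8 and 19.6 CPM in K74R tumors (-0.65, SE 0.18, 0.316) and Klf4 56.3, 46.6 and 64.7 CPM (-0.51, SE 0.12, 0.267). Klf7 held 33.9, 31.4 and 43.7 CPM (-0.37, SE 0.13, 0.372) and Klf6 208, 227 and 243 CPM (-0.23, SE 0.07, 0.350). No single library, left out in turn, turned the direction of these 5.

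The remaining tumor values overlapped between genotypes. K74R tumors held 70.2, 60.3 and 51.5 CPM of Klf3, 43.3, 39.5 and 37.5 CPM of Klf13 and 25.3, 25.5 and 40.6 CPM of Klf9, with fold changes of -0.16, -0.20 and -0.33. Klf5 (18.6, 21.1 and 29.8 CPM) and Klf10 (49.0, 35.5 and 37.7 CPM) had 0.34 and 0.01. Adjusted p ran from 0.452 to 0.981 in edgeR. Summed over the 10 genes, the length-adjusted level was 147 to 159 CPM per kilobase in WT tumors and 116 to 129 in K74R tumors. Klf6 alone made up 39.9% of the sum in WT and 42.1% in K74R, so the sum does not describe each member.

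Macrophage and vessel markers had lower sums in the same K74R tumors. Monocyte and macrophage markers summed to 984 to 1010 CPM in WT against 586 to 839 CPM in K74R, with 8 of 12 lower at an unadjusted p under 0.05 and 0 called. Endothelial markers summed to 162 to 194 CPM in WT against 127 to 150 CPM in K74R, with 6 of 10 lower at that p and 0 called. Ptprc stood at 128, 110 and 133 CPM in WT against 111, 49.98 and 70.5 CPM in K74R. Markers of other leukocytes overlapped between genotypes: T and NK cell markers summed to 103 to 130.1 CPM in WT against 87.5 to 129 CPM in K74R, neutrophil markers to 86.0 to 102 against 58.3 to 88.0 CPM, and B cell markers to 66.6 to 77.8 against 54.6 to 72.0 CPM. Of 6 B cell markers tested 3 were lower at that p and 0 called. How far these cells carry the values of Klf2, Klf4, Klf6, Klf7 and Klf11 was not tested.

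**Figure D3:**
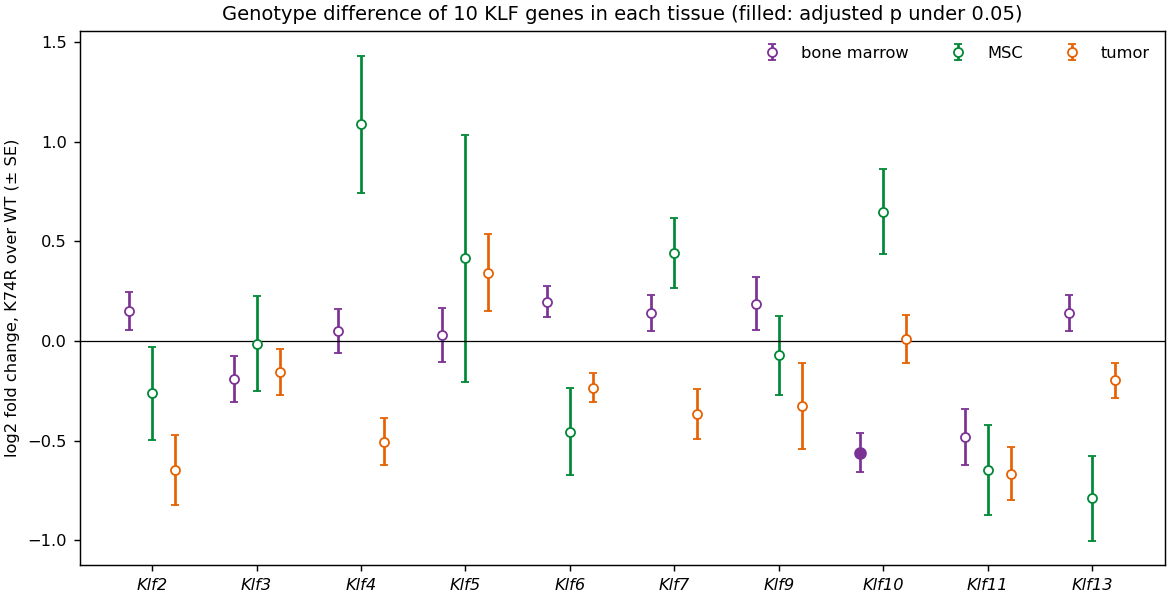
Log2 fold change, K74R over WT, with its standard error (y axis) of the 10 KLF genes (x axis) in bone marrow (purple), MSC (green) and tumor (orange), a filled point marking adjusted p under 0.05. Only Klf10 in bone marrow is filled, at -0.56, while Klf4 and Klf10 lie above 0 in MSC and Klf11 lies below 0 in all 3 tissues.

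Whether a genotype difference itself differed between tissues was tested as an interaction of genotype and tissue, over the 16 libraries together. Between bone marrow and MSC 4 of the 10 members passed (18.8% of 18191 genes did), and between MSC and tumor 2 (10.6%). Between bone marrow and tumor 0 passed with edgeR and 0 with DESeq2, with 0.0385% and 0.995% of all genes passing. There 4 members had an unadjusted p under 0.05 in edgeR, as did 2087 of all 18191 genes. All of the calls involve MSC, the tissue with 2 libraries a group and the marker differences given above. The model took its spread from every tissue, and so did each of its alternatives. Replicates differed most in MSC, with a chi-square per gene of 51.4 (WT) and 58.7 (K74R), against 6.86 to 19.6 in the other tissues. Passing in all alternatives thus does not show that a call would hold with the spread of MSC alone. Within MSC alone 0 of the 10 members passed with edgeR.

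Klf10 had fold changes of -0.56 in bone marrow and 0.65 in MSC, and its contrast (bone marrow minus MSC) was -1.23 (SE 0.22, edgeR adjusted p = 0.00147). Klf13 had 0.14 in bone marrow and -0.79 in MSC, with a contrast of 0.91 (SE 0.19, 0.00370). Both passed in all 20 alternatives. Klf6 had 0.63 (SE 0.16, 0.0131) in the same direction as Klf13, and missed the threshold without K74R MSC library 1 (0.47, 0.0695). Klf4 had -1.06 (SE 0.31, 0.0276) and passed in 15 of 20. Without K74R MSC library 1 its contrast was -0.49 (0.228), and the call was also lost without WT MSC library 2 (0.103), WT bone marrow library 1 (0.0612) or K74R bone marrow libraries 2 (0.0621) or 3 (0.0513).

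Against tumors, Klf4 had fold changes of 1.09 in MSC and -0.51 in tumors, a contrast (MSC minus tumor) of 1.61 (SE 0.31, edgeR adjusted p = 0.00391). Klf7 had 0.83 (SE 0.18, 0.0101), from 0.44 in MSC and -0.37 in tumors. These 2 passed in all 20 alternatives. Klf10 (0.66, 0.0680) and Klf13 (-0.57, 0.0662) did not pass. Both passed with DESeq2 (0.0378 and 0.0433), as did 14.3% of all genes, and without K74R MSC library 2 (0.0119 and 0.00638), and Klf10 also without K74R tumor library 1 (0.0229). Of the 4 promoters printed above, GC boxes stood in those of Klf4, Klf6, Klf7 and Klf13 alike, and CACCC boxes in those of Klf7 and Klf13. The promoter windows of Klf2, Klf3 and Klf11, which passed no interaction in the main edgeR model, also held GC boxes, and that of Klf9 held none. Any link between these boxes and the fold changes was not tested.

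Genes around the family were read from lists on binding partners, related factors, upstream pathways and targets. Of 7 other KLF genes in the table, 5 could be tested for bone marrow, 4 for MSC and 4 for tumors, and 0 passed with edgeR. Klf8, a CtBP-binding repressor, had 3.25 ± 0.00524 CPM in WT against 7.26 ± 0.806 CPM in K74R MSC (adjusted p = 0.0903), and 44.7 and 44.1 CPM in tumors. Of the related Sp factors, which bind GC boxes, 0 of 5, 6 and 6 tested passed in bone marrow, MSC and tumor. Sp7, a factor of bone formation, had 86.0 ± 1.73 and 168 ± 12.8 CPM in WT against K74R MSC (adjusted p = 0.0505). Among 12 corepressors and coactivators of KLF proteins 0 passed in any tissue, with medians of 0.07, 0.06 and 0.05. The acetyltransferase gene Kat2b had 93.2 ± 0.36 and 53.7 ± 19.2 CPM in MSC (0.145). Among 8 ubiquitin ligases that act on KLF proteins 0 passed. Wwp1, whose product marks Klf2 and Klf5 proteins for destruction, had 549 ± 184 CPM in WT against 222 ± 96.7 CPM in K74R MSC (0.116). Fbxo32 had 11.8 ± 1.70 and 7.46 ± 0.418 CPM in tumors (0.254).

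The kinase and MEF2 pathway that induces Klf2 and Klf4 had 7 genes tested, and 0 passed in any tissue. All 7 fold changes were positive in bone marrow and all 7 negative in tumors, with medians of 0.12 and -0.17. At an unadjusted p under 0.05 there was 1 in bone marrow and 2 in tumors, where 17.8% and 11.2% of all genes reached it. In MSC 5 of 7 were negative, with a median of -0.33, and Map3k3, a kinase gene of the pathway, had 149.5 ± 11.4 CPM in WT against 93.8 ± 7.91 CPM in K74R (edgeR adjusted p = 0.0921). In tumors Mapk7, which encodes the kinase ERK5, had 28.8 ± 1.63 CPM in WT against 24.2 ± 0.997 CPM in K74R, and Mef2d, a transcription factor downstream of it, 108 ± 6.04 and 93.1 ± 5.89 CPM (edgeR adjusted p = 0.382 and 0.394). Of the 9 TGF-beta pathway genes upstream of Klf10 and Klf11 0 passed. All 9 were positive in bone marrow and 7 of 9 were negative in MSC and in tumors, with medians of 0.10, -0.42 and -0.10. Some lay close to 0, such as Tgfbr1 and Smad4 in bone marrow (0.01 and 0.02). At an unadjusted p under 0.05 there were 2 higher in bone marrow, 1 higher and 2 lower in MSC, and 0 in tumors. Of all genes 17.8%, 26.0% and 11.2% reached that p. The receptor gene Tgfbr2 had 65.5 ± 14.1 and 103 ± 4.10 CPM in bone marrow (0.0775). In MSC Tgfbr2 had 873 ± 41.9 CPM in WT against 334 ± 113 CPM in K74R (0.0610), and Smad7, a feedback inhibitor of the pathway, 35.4 ± 0.869 and 76.5 ± 20.7 CPM (0.0630).

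A list of 10 genes named as glucocorticoid-induced was chosen because the hormone also induces Klf9. Of the 10, 4 rose in K74R bone marrow, where 0.773% of all genes passed, and 6 did not pass. Their summed level was 373 to 438 CPM in WT against 560 to 605 CPM in K74R. The sum includes Nr3c1, the gene of the glucocorticoid receptor itself, at 155 ± 0.971 CPM in WT and 184 ± 9.46 CPM in K74R (edgeR adjusted p = 0.124). Tsc22d3, which encodes the anti-inflammatory protein GILZ, rose from 50.8 ± 7.08 to 122 ± 4.21 CPM (1.28, edgeR adjusted p = 8.7e-04), and the clock gene Per1 rose from 22.5 ± 4.72 to 72.9 ± 5.11 CPM (1.72, 0.00106). Ddit4 and Dusp1 were the other 2. Fkbp5 had 99.5 ± 21.0 CPM in WT against 79.7 ± 18.3 CPM in K74R marrow (-0.31, 0.408). Klf9 had a fold change of 0.19 there (0.497). In MSC, where 3.34% of all genes passed, 2 of the 10 rose, Fkbp5 and Ddit4, both by over 2-fold, while Klf9 had -0.07. In tumors 0 passed, with 3 at an unadjusted p under 0.05.

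Immediate early genes, which like Klf2, Klf4, Klf6 and Klf10 respond within a short time to serum, stress and tissue handling, were read as a gauge of such responses. In bone marrow, where 0.773% of all genes passed, 2 of 15 tested rose. These were Zfp36 (47.7 ± 4.31 to 83.4 ± 9.53 CPM) and Dusp1, which is also in the glucocorticoid list. The summed level of the list was 444 to 477 CPM in WT against 514 to 617 CPM in K74R marrow, where Klf10 fell. In MSC it was 1246 and 675 CPM in WT against 658 and 680 CPM in K74R. Of 18 tested there Fosl1 rose, and Egr2 and Nr4a1 fell (edgeR adjusted p = 0.0375, 0.0454 and 0.0361), where 3.34% of all genes passed. In tumors it was 672 to 725 CPM in WT against 633 to 660 CPM in K74R, with 0 called. The part of these responses in the values of the KLF genes was not tested.

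Of the described targets of KLF factors 0 passed in any tissue, out of 14, 12 and 15 tested, with medians of 0.05, -0.09 and 0.06. Nos3, a Klf2 target that makes nitric oxide in endothelium, had 10.9 ± 11.2 CPM in WT against 0.209 ± 0.204 CPM in K74R MSC (edgeR adjusted p = 0.0610), in the libraries whose endothelial markers differed. In bone marrow the clock gene Arntl had 19.3 ± 4.54 and 35.8 ± 8.94 CPM (0.100).

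**Figure D4:**
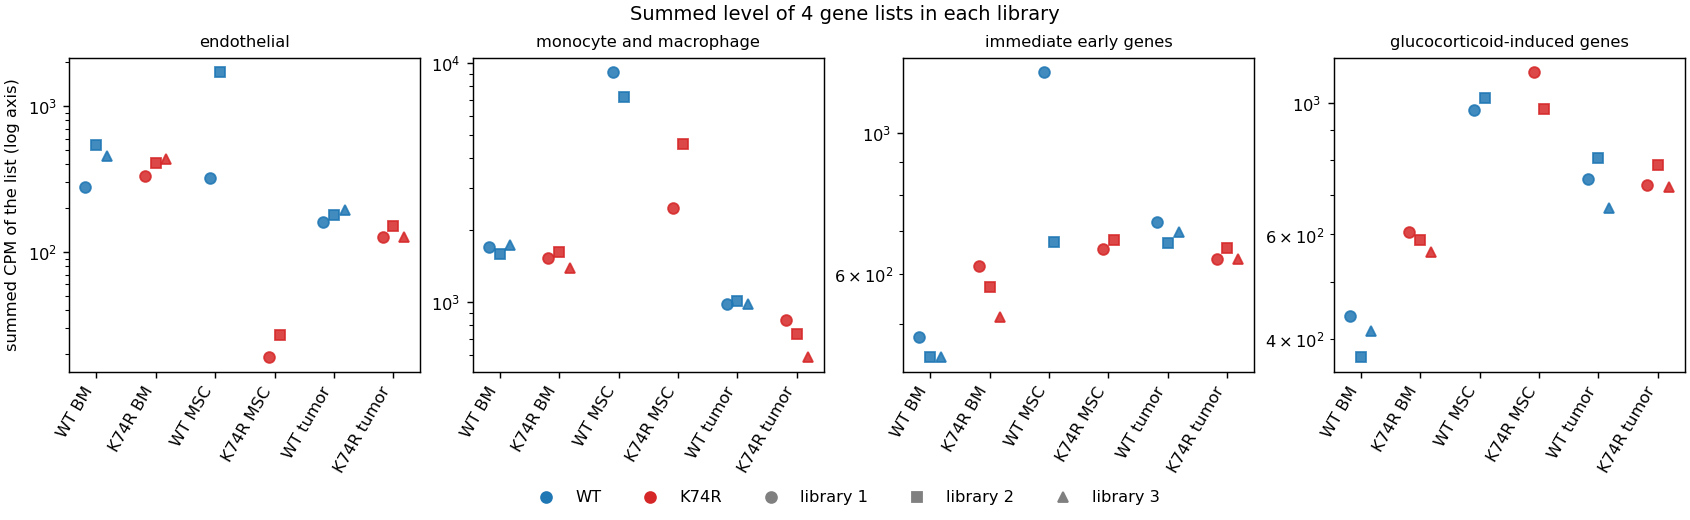
Summed CPM (y axis, log scale) of endothelial markers, monocyte and macrophage markers, immediate early genes and glucocorticoid-induced genes in each library, by tissue and genotype (x axis), WT in blue and K74R in red, with a marker shape per library number. Endothelial markers reach 1708 CPM in WT MSC and lie at 18.9 and 26.9 CPM in K74R MSC, and glucocorticoid-induced genes in K74R bone marrow lie at 560 to 605 CPM, above all WT marrow libraries.

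Across the 16 libraries, each member was compared with 13344 named genes by the Pearson correlation of log2 CPM. The points share tissues, so a high value mostly ranks genes by a like order of tissues. Nearest to Klf13 were Ankrd44 and Svil (both 0.995), nearest to Klf3 Ccdc71l (0.993) and Hipk2 (0.991), nearest to Klf5 Rcc2 (0.989) and Slc16a1 (0.987), and nearest to Klf6 Nhlrc3 (0.982) and P2ry6 (0.978). The lowest maxima were 0.798 for Klf7 (Hacl1), 0.804 for Klf2 (Cln6) and 0.878 for Klf4 (Ppdpf). Klf11 reached 0.926 (Xpa), Klf9 0.921 (Ilvbl) and Klf10 0.920 (Ndufs3).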

How the data were processed

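Per the labels' protocols, TRIzol was used to extract RNA and a KAPA mRNA HyperPrep kit to prepare libraries. The authors deposited raw counts per gene for 16 libraries, whole numbers with 1 column per sample. FastQC, MultiQC, Trimmomatic 0.38, HISAT2 2.1.0, featureCounts 1.6.0 and build GRCm38 are named in the submitters' processing notes. Annotation release, strand setting and handling of multiply mapped reads were not given in the sources used here.

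All 55536 identifiers matched GENCODE M21 on GRCm38. CPM used totals scaled by trimmed mean of M-values (TMM) factors over the 16 libraries. At this depth 3 counts equal 0.159 to 0.213 CPM, counting error only. Tests used R 4.3.3 and edgeR 4.0.16 (filterByExpr, TMM, quasi-likelihood, Benjamini-Hochberg over all genes, threshold 0.05, prior count 0.125), within each tissue, between tissues in WT, and as interactions in 1 model of 6 groups. The code was tested on simulated data. Members, lists and tests were chosen with earlier results of these data known. All 10 members are named, with up to 2 risen and 2 fallen genes per list and tissue, or up to 2 with the smallest p; not every such gene is named, and others were named after their values were seen. Replicates of a group differed beyond sampling noise in every pair, and most in MSC. The chi-square per gene was 51.4 (WT) and 58.7 (K74R) there and 6.86 to 19.6 in the other tissues. Alternatives were other scalings and filters, DESeq2 1.42.0, limma-voom (limma 3.58.1), robust dispersion, all libraries in 1 model, the replicate block, K74R in place of WT libraries, and each library left out. Promoters came from RefSeq.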

Additional observations from a re-analysis of the deposited data

Results flagged for a closer look

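Genotype differences that were not alike in 2 tissues were found for 5 genes, by the interaction contrast in edgeR over all 16 libraries. That model took its spread from every tissue, and replicates differed most in MSC. For bone marrow minus MSC the contrast was -1.06 for Klf4, 0.63 for Klf6, -1.23 for Klf10 and 0.91 for Klf13. For MSC minus tumor it was 1.61 for Klf4 and 0.83 for Klf7. Klf4 is in both sets and rests in part on K74R MSC library 1, without which its contrast of bone marrow and MSC was -0.49 (adjusted p = 0.228) and that of Klf6 0.47 (0.0695). In each of these cases MSC is 1 of the tissues, whose K74R libraries held 18.9 and 26.9 CPM of summed endothelial markers against 322 and 1708 CPM in WT, and the part of this in the contrasts was not tested.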

How the results depend on the processing

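Of 470 genotype values under alternatives 426 kept direction and side of the threshold, of 430 tissue values 398 and of 600 interaction values 574. The members called in K74R against WT bone marrow were 2 without a filter on low counts (among 875 genes called) and 0 with limma-voom (80) or all 16 libraries in 1 model (60), against 1 in the report (115); DESeq2 called 1 (533). In MSC they were 2 without a filter (3063), 2 with DESeq2 (1909) and 6 with all 16 libraries in 1 model (4431), and in tumors 4 without a filter (810) and 3 with DESeq2 (202), against 0 in the report (484 and 6 genes). Between bone marrow and tumor 5 were called in K74R libraries (12817 of 15898 genes) and 9 in WT (12350 of 15730). For interactions, bone marrow against tumor had 1 without a filter (603 genes), and MSC against tumor 4 with DESeq2 (2597). Leaving out a library gave 0 to 2 called members in bone marrow, among 11 to 684 genes. Leaving out a bone marrow or tumor library gave 3 to 4 in the interaction of bone marrow and MSC (2577 to 3365 genes). It gave 2 to 3 in that of MSC and tumor (1464 to 1866). Leaving out an MSC library left 1 in its group, so no such counts are given here. The cause was not tested.

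Signs reversed as follows. Klf3 in MSC was 0.0239 with upper quartile factors and 0.00918 with limma-voom, and Klf10 in tumors -0.000352 in the single model. K74R libraries gave, for bone marrow minus tumor, Klf2 0.62, Klf7 0.27 and Klf10 -0.21, for bone marrow minus MSC, Klf2 0.0294 and Klf4 -0.81, and for MSC minus tumor, Klf4 0.78 and Klf7 0.80. Klf2 was -0.0368 for MSC minus tumor with library size alone. Leaving out libraries moved Klf4 and Klf5 in bone marrow from -0.03 to 0.16 and from -0.0863 to 0.16. In MSC it moved Klf3 from -0.26 to 0.27, Klf5 from -0.21 to 1.49 and Klf9 from -0.24 to 0.12, and in tumors Klf10 from -0.14 to 0.10. Between WT tissues Klf10 ran from -0.14 to 0.0173 (bone marrow, MSC), and Klf2 from -0.0511 to 0.32 and Klf7 from -0.12 to 0.00573 (MSC, tumor). In interactions Klf3 ran from -0.15 to 0.0815 (bone marrow, tumor), Klf3, Klf5 and Klf11 from -0.47 to 0.0424, -1.48 to 0.23 and -0.0193 to 0.34 (bone marrow, MSC), and from -0.0616 to 0.45, -0.53 to 1.18 and -0.14 to 0.22 (MSC, tumor).

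Whether equal replicate numbers pair libraries could not be settled. Correlations of their deviations were 0.315, 0.155 and -0.131 in bone marrow and 0.034, -0.027 and 0.087 in tumors. Unequal numbers gave -0.306 to 0.218 in bone marrow and -0.076 to 0.042 in tumors. In MSC the values were -0.202 for equal and 0.202 for unequal numbers. With 2 libraries a group these mirror each other and cannot tell. With the replicate block 1, 0 and 0 members were called in bone marrow, MSC and tumors, among 135, 1135 and 13 genes, and Klf3 in MSC was 0.00701. With it Klf10 passed between MSC and tumor as an interaction (0.65, adjusted p = 0.0335), and lost its WT call between them (0.38, 0.0701). A crossed pairing in MSC, added after seeing the data, called 1 member (Klf13) among 1943 genes, with Klf3 at 0.00697. Where 1 library remained in an MSC group, it was assumed to vary like the others. Klf5 in MSC rests on 10 to 31 counts a library, so small differences there were not detectable at this depth.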
